A study of Homo sapiens with 40 samples.

Results

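The EGF family ligands and ERBB receptors were followed across the RNA-seq libraries as 10 genes, chosen by symbol out of the 60708 genes counted. The 7 ligands were EGF, TGFA, AREG, EREG, HBEGF, BTC and NRG1, and the 3 receptors were EGFR, ERBB2 and ERBB3. All 10 symbols matched a gene of the count files, and each gene had counts in every library. The study compared mammary cells with and without TGFβ stimulation, with and without transforming HRAS, and after loss of the transcription factor SLUG (gene SNAI2) or of SMAD proteins, which carry the TGFβ signal to the nucleus. The 24 libraries formed 8 groups of 3. MI-spheres were 3D cultures in ultra-low attachment plates of MCF-10A, an immortalized and non-transformed breast epithelial line, and MII-spheres were the same kind of culture of its HRAS-transformed derivative. Spheres of each line were unstimulated (Ctrl) or received TGFβ1 at 2.5 ng/ml for 16 h. The other 4 groups were monolayers of MDA-MB-231, a triple-negative breast cancer line. These were untreated cells (WT), cells labelled SLUG KO, edited with Cas9 in exon 1 and expanded from single-cell colonies, cells with control scramble siRNA (Csi), and cells with siRNAs against SMAD2, SMAD3 and SMAD4 together (siSMAD2/3/4). How many knockout clones the 3 SLUG KO libraries represent is not given in the sources used here.

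EGF family ligands are made as membrane-bound precursors, and surface proteases release the soluble factor. EGF, TGFα (TGFA) and amphiregulin (AREG) bind EGFR, epiregulin (EREG), HB-EGF (HBEGF) and betacellulin (BTC) bind EGFR and ERBB4, and neuregulin 1 (NRG1) binds ERBB3 and ERBB4. ERBB2 has no known soluble ligand and ERBB3 has little kinase activity, so both act mainly in pairs with other receptors. In mammary epithelium the family drives duct growth, with AREG the main EGFR ligand of the growing duct, and its signals run through RAS and ERK.

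Promoters are shown for AREG and EREG, which were higher in MII- than in MI-spheres, and for HBEGF, which was lower in MII-spheres and after TGFβ. The sequences are RefSeq's for GRCh38.p14, where 8 of the 10 members matched and ERBB3 and NRG1 did not. Each is the 250 bases before the gene start, read 5′ to 3′ on the gene's strand, and each start is the one of the counted gene. Capitals mark matches to 4 motifs searched on both strands, namely AP-1 (TGANTCA), CRE (TGACGTCA), a CAGA box (CAGACA) and SOX (AACAAAG), which do not overlap here.
AREG, chr4:74444886-74445135, plus strand: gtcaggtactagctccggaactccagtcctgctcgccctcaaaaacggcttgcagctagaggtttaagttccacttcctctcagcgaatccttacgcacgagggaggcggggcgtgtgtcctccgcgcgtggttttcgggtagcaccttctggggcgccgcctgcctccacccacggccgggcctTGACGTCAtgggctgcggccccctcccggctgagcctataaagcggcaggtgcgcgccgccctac
EREG, chr4:74364895-74365144, plus strand: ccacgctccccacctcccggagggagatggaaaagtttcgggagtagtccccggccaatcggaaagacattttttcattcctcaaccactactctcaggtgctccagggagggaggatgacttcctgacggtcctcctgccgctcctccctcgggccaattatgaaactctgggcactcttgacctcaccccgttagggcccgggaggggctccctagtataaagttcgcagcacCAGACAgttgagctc
HBEGF, chr5:140346604-140346853, minus strand: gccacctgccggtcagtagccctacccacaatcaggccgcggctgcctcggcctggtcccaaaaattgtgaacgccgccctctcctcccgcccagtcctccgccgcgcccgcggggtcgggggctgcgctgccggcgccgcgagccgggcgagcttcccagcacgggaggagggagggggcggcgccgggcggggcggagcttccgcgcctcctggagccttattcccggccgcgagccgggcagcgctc
The AREG window held 1 CRE, at -65 to -58 from the start, and the EREG window 1 CAGA box, at -15 to -10, while none of the 4 motifs was in the HBEGF window. EGF, also higher in MII-spheres, is not shown, and its window held 1 AP-1 match, at -17 to -11. Of 35116 promoter windows of this length, 1.65% held the CRE, 13.61% the CAGA box, 6.57% the AP-1 motif and 4.5% the SOX motif. EREG, AREG and BTC lie next to EPGN, the gene of the ligand epigen, on chromosome 4, with 48.4 kb between EPGN and EREG, 56.4 kb between EREG and AREG and 289.8 kb between AREG and BTC in the coordinates of the count files. EGF is on the same chromosome at 109912883 to 110013766.

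The libraries held 14124688 to 38406952 counts on genes. CPM are the count's share of the library, scaled here with TMM for differences in composition. Without that scaling, log2 CPM correlated across genes within groups with Pearson's r of at least 0.9948, except in WT. There replicate 2 gave 0.9486 and 0.9434 with replicates 1 and 3. WT replicate 2 also stood apart for members. The tests of members and other pathway genes against WT, the ligand shares of WT and the receptor ratio are therefore given with and without it. SNAI2 had 61.8 ± 3.59 CPM in SLUG KO and 28.3 ± 6.62 in WT (SD, n = 3). Its RNA was thus higher, not lower, in SLUG KO, at 2.15-fold with all 3 WT libraries (adjusted p = 0.0399 by edgeR's quasi-likelihood test). An edit in exon 1 need not lower the RNA, and counts over the whole gene do not check it. The study's methods state that knockout clones were checked by ddPCR and immunoblotting. HRAS was higher in MII-spheres (220 against 40.7 CPM, unstimulated), SMAD7, a TGFβ target, did not pass the test for TGFβ in either line, and SMAD2, SMAD3 and SMAD4 were 0.264-, 0.619- and 0.303-fold in siSMAD2/3/4. Vimentin (VIM) was at least 568 CPM in MDA-MB-231 libraries and at most 10.7 in spheres. Summed levels of the 5 mesenchymal markers, VIM among them, were 876 to 4120 and 59.6 to 298 CPM. CDH2 was not higher in MDA-MB-231 groups (means of 1.175 to 2.28 CPM) than in sphere groups (1.54 to 10.3). FN1 averaged 87.6 CPM in SLUG KO, 773 to 2891 in the other MDA-MB-231 groups and 55.3 to 262 in sphere groups. TWIST1 too was not higher in MDA-MB-231 groups, with no counts in SLUG KO and too few to be tested in either MDA-MB-231 comparison. All 5 mesenchymal markers averaged at least 1 CPM in each sphere group, and 4 in each MDA-MB-231 group. Leukocyte markers summed to at most 0.737 CPM in any library. Of the 3 endothelial markers, summed levels were 31.3 to 34.5 CPM in unstimulated MI- and 114 to 117 in unstimulated MII-spheres. PECAM1 alone was higher there (10.8-fold), while CDH5 (0.480-fold) and VWF (0.157-fold) were lower. The 6 basal markers also moved both ways in unstimulated MII-spheres, with TP63 (0.0117-fold), KRT5 (0.178-fold) and KRT17 (0.259-fold) lower, KRT14 (5.36-fold) and CDH1 (1.08-fold) higher, and ITGB4 (1.01-fold) not past the test. The part of these markers in the results was not tested.

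Transcripts of the ligands differed in composition between the cell types. On the TPM scale, which divides by exon length and so allows genes to be compared within a library, HBEGF made up 56.4% ± 0.971 (SD, n = 3) of the summed ligand TPM in unstimulated MI-spheres, and AREG 17.9% ± 1.18. In unstimulated MII-spheres the order was the opposite, with AREG at 52.8% ± 0.436 and HBEGF at 19% ± 0.611. TGFA held 15.8% to 26.6% in every group. After TGFβ, HBEGF fell to 36.9% ± 0.918 of ligand TPM in MI- and 11.9% ± 0.551 in MII-spheres, and AREG stood at 33.3% ± 0.674 and 54.3% ± 0.922. AREG led in WT (33.2% ± 1.69, and 31.9% and 32.6% in the libraries other than replicate 2, beside HBEGF at 29.6% to 31.4% in these), Csi (60.7% ± 1.33) and siSMAD2/3/4 (58.8% ± 0.626), and HBEGF in SLUG KO (38.1% ± 1.46). EGF itself was below 1% in every group. These shares are descriptions without a test. The lengths used are of all annotated exons merged, 21398 bases for NRG1 and 1642 for AREG, and not of the transcripts expressed. The shares thus depend on them. The shares cover the 7 member ligands and leave out EPGN, which averaged 26.4 TPM in stimulated MI-spheres, beside 142.2 for the sum of the 7.

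**Figure D1:**
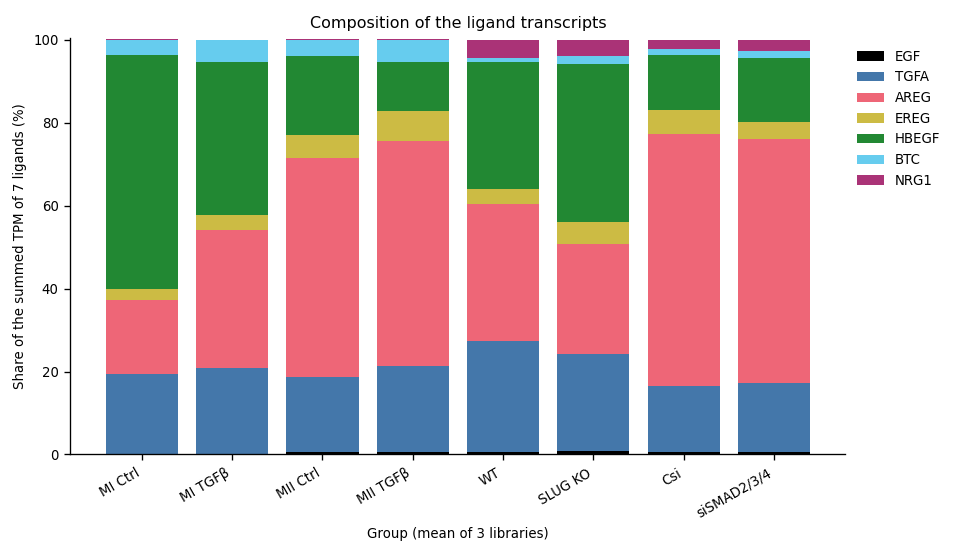
Stacked bars give the mean share of each ligand, in percent, of the summed TPM of the 7 ligands in the 3 libraries of each group. HBEGF takes 56.4% in unstimulated MI-spheres and AREG 52.8% in unstimulated MII-spheres.

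HBEGF, the heparin-binding ligand, had 211, 203 and 207 CPM in unstimulated MI-spheres and 100.9, 93.8 and 110.6 in stimulated ones. In unstimulated MII-spheres it had 63.2, 67.6 and 62.3 CPM, and 37.0, 36.2 and 35.1 after TGFβ. The 4 sphere groups did not overlap, with unstimulated MI-spheres highest and stimulated MII-spheres lowest. Stimulated MI-spheres overlapped in range with WT (75.1 to 102.5 CPM), SLUG KO libraries lay above WT (126.8 to 151.3), and Csi (41.2 to 44.3) and siSMAD2/3/4 (53.5 to 54.8) did not overlap.

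AREG had 34.4, 38.6 and 35.1 CPM in unstimulated MI-spheres and 52.7, 46.0 and 52.9 with TGFβ. MII-spheres had 96.2, 99.7 and 98.5 CPM unstimulated and 89.9, 88.0 and 94.3 stimulated. Every MII library was thus above every MI library, and within each line the stimulated and unstimulated libraries did not overlap. Csi and siSMAD2/3/4 had the highest means (108.1 and 113 CPM) and overlapped each other, and WT and SLUG KO (50.7 and 53.1 CPM) overlapped each other and stimulated MI-spheres.

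EREG had 17.4, 17.1 and 19.3 CPM in unstimulated MI-spheres and 19.6, 16.2 and 19.9 with TGFβ, which overlapped. MII-spheres had 36.9, 34.9 and 38.02 CPM without and 40.5, 43.8 and 41.9 with TGFβ, again above every MI library. In WT it had 23.1, 6.55 and 28.8 CPM, where the low value is replicate 2, against 35.4 to 37.2 in SLUG KO.

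EGF was low, at 0.963 to 1.09 CPM in unstimulated and 1.26 to 1.34 in stimulated MI-spheres, against 4.25 to 4.77 and 4.33 to 4.89 in MII-spheres. Counts of EGF in the 24 libraries ran from 20 to 224, so its levels are the least precise of the members beside NRG1 and BTC. TGFA was the most even ligand, with group means from 84.4 CPM in Csi to 138.5 in SLUG KO. BTC averaged 11.8 to 14.3 CPM in the 4 sphere groups, which overlapped in range except unstimulated MI- (11.1 to 13.0) and stimulated MII-spheres (13.3 to 15.4), and 2.36 to 6.46 in MDA-MB-231 groups. NRG1 was near absent from spheres, at 0.267 to 1.26 CPM, and had 53.6 to 105.7 CPM in MDA-MB-231 libraries. Culture form, line and, for Csi and siSMAD2/3/4, sequencing batch differ together between spheres and monolayers and cannot be told apart, so these levels were not tested.

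**Figure D2:**
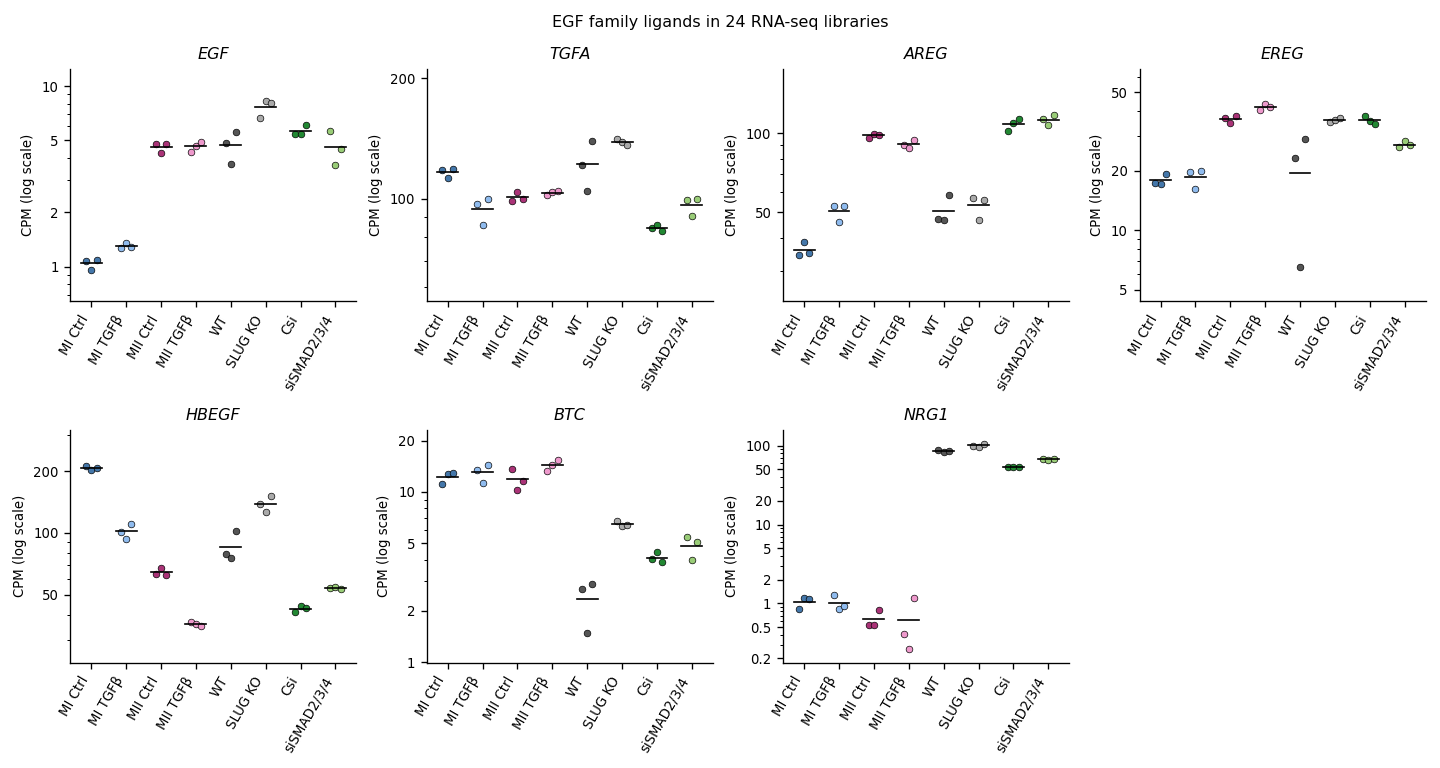
Points give CPM on a log axis for each of the 3 libraries of a group, 1 panel for each ligand, and horizontal lines the group means. Every MII library lies above every MI library for EGF, AREG and EREG and below for HBEGF, and NRG1 is at least 53.6 CPM in MDA-MB-231 libraries only.

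The receptors split the libraries by cell type. ERBB3 had 352 to 354 CPM in unstimulated and 160 to 172 in stimulated MI-spheres, 293 to 305 in unstimulated and 201 to 213 in stimulated MII-spheres, and 5.39 to 12.4 in MDA-MB-231 libraries. No 2 of the sphere groups overlapped for it. ERBB2 had 325 to 335 and 214 to 228 CPM in MI-spheres, 361 to 385 and 326 to 349 in MII-spheres, and 70.9 to 159.7 in MDA-MB-231 libraries. EGFR went the other way, with 99.7 to 102.8 CPM in unstimulated and 140.5 to 166 in stimulated MI-spheres, 65.7 to 70.1 and 72.1 to 76.4 in MII-spheres, and 257 to 553 in MDA-MB-231 libraries. WT replicate 2 held the highest EGFR (553 CPM) and, of the MDA-MB-231 libraries, the highest ERBB2 (159.7 CPM). The TPM ratio of EGFR to ERBB3 was 0.265 to 0.272 in unstimulated MI-spheres, 0.821 to 0.932 in stimulated MI-spheres, 0.201 to 0.224 in unstimulated and 0.318 to 0.339 in stimulated MII-spheres, and 25.5 to 75.8 in MDA-MB-231 libraries, or up to 53.8 without WT replicate 2. Strand was ignored in counting, and ERBB2 shares 5.53% of its exon length with MIEN1 and EGFR 1.49% with EGFR-AS1 on the opposite strand, so a small part of these counts is uncertain.

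**Figure D3:**
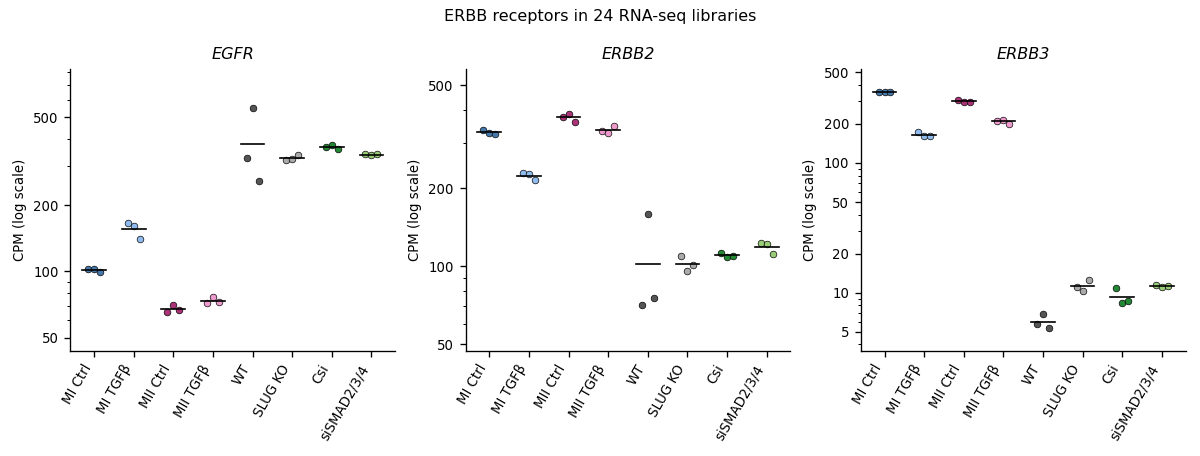
Points give CPM on a log axis for each of the 3 libraries of a group, 1 panel for each receptor, and horizontal lines the group means. ERBB3 is at least 160 CPM in spheres and at most 12.4 in MDA-MB-231 libraries, and EGFR is at least 257 in MDA-MB-231 libraries.

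Whether TGFβ changed the members in MI-spheres was tested on 6 libraries. HBEGF and ERBB3 fell to 0.464- and 0.439-fold, ERBB2 and TGFA fell less, and AREG and EGFR rose. Values are log2 fold-changes ± SE with edgeR's quasi-likelihood test and Benjamini-Hochberg adjustment over all genes tested. HBEGF fell by 1.11 ± 0.06 (adjusted p = 4.94e-13) and ERBB3 by 1.19 ± 0.05 (adjusted p = 4.55e-14), the 2 members that were DEGs, here genes past both an adjusted p of 0.05 and a log2 fold-change of 1 in either direction. ERBB2 had -0.64 ± 0.05 (adjusted p = 1.29e-09) and TGFA -0.39 ± 0.06 (adjusted p = 6.46e-06). AREG had 0.41 ± 0.07 (adjusted p = 4.84e-05) and EGFR 0.53 ± 0.06 (adjusted p = 4.22e-07). EGF, EREG, BTC and NRG1 did not pass, at 0.23 ± 0.29, -0.03 ± 0.09, 0.01 ± 0.10 and -0.13 ± 0.32. The 6 of 10 members past the adjusted p stand beside 56.0% of the 16863 genes tested, and the 2 DEGs beside 13.6%. The members' median log2 fold-change was -0.08 and that of all genes -0.02. CPM above are scaled over 24 libraries and fold-changes over the 6 compared, which sets the fitted log2 values lower by a median of 0.082 here and higher by 0.076 for stimulated MII- against MI-spheres.

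In MII-spheres TGFβ lowered HBEGF and ERBB3 again, with smaller changes elsewhere. HBEGF fell to 0.547-fold (-0.87 ± 0.06, adjusted p = 3.16e-18 by edgeR's quasi-likelihood test) and ERBB3 to 0.684-fold (-0.55 ± 0.04, adjusted p = 3.02e-18). ERBB2 had -0.20 ± 0.04 (adjusted p = 7.35e-06). AREG had -0.15 ± 0.05 (adjusted p = 0.00578), but 0.03 with a gene-length correction, so its direction is not settled. EREG had 0.17 ± 0.06 (adjusted p = 0.0174) and BTC 0.27 ± 0.11 (adjusted p = 0.0312), calls lost in 3 and 6 of 14 alternatives each, where the adjusted p reached 0.101 and 0.276. TGFA, EGF and EGFR did not pass, at 0.00 ± 0.05, -0.01 ± 0.17 and 0.09 ± 0.05, and NRG1 had too few counts to be tested. Of 9 members tested 6 passed, beside 57.6% of genes, and none was a DEG, beside 10.6%. Without stimulated replicate 2 only 3 passed, since AREG, EREG and BTC were lost, while the share of all genes was 52.2%.

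**Figure D4:**
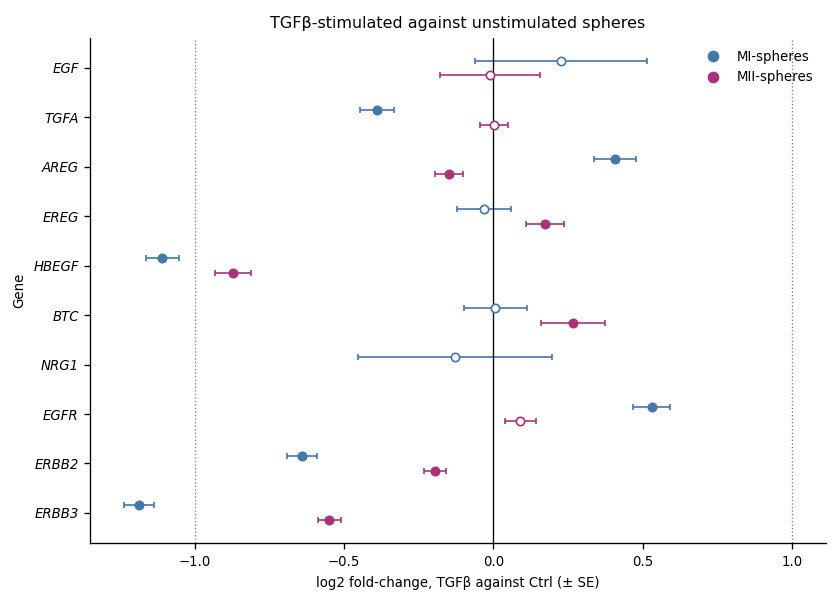
Points give the log2 fold-change of stimulated against unstimulated spheres and bars its SE, from 3 against 3 libraries in each line, with filled points past an adjusted p of 0.05 and dotted lines at -1 and 1. HBEGF and ERBB3 lie left of 0 in both lines, and AREG and EGFR lie right of 0 in MI-spheres.

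The difference between these responses was tested as an interaction over the 12 sphere libraries. Values are the MII response minus the MI response, and 6 of 10 members passed, beside 22.4% of genes. ERBB3 had 0.65 ± 0.06 (adjusted p = 1.48e-10 by edgeR's quasi-likelihood test) and ERBB2 0.46 ± 0.06 (adjusted p = 5.63e-07), so both receptors fell less in MII-spheres. TGFA had 0.40 ± 0.07 (adjusted p = 4.49e-05). AREG had -0.55 ± 0.08 (adjusted p = 3.16e-06) and EGFR -0.43 ± 0.08 (adjusted p = 8.42e-05). HBEGF had 0.25 ± 0.08 (adjusted p = 0.0197), but 13 of its 19 alternatives missed the threshold. EGF, EREG, BTC and NRG1 did not pass, at -0.23 ± 0.31, 0.21 ± 0.11, 0.27 ± 0.15 and 0.06 ± 0.60. No member was a DEG, beside 5.84%.

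Unstimulated MII- and MI-spheres were compared for the difference between the HRAS-transformed line and its parent. Each was a single line, so HRAS and other differences between the lines cannot be told apart. EGF, AREG and EREG were 4.38-, 2.75- and 2.05-fold higher in MII-spheres, and HBEGF was 0.314-fold. EGF had a log2 fold-change of 2.13 ± 0.22 (adjusted p = 1.44e-12 by edgeR's quasi-likelihood test), AREG 1.46 ± 0.05 (adjusted p = 3.69e-31), EREG 1.04 ± 0.07 (adjusted p = 1.81e-19) and HBEGF -1.67 ± 0.04 (adjusted p = 2.15e-38). EGFR was lower (-0.58 ± 0.05, adjusted p = 2.2e-16), as were ERBB3 (-0.23 ± 0.03, adjusted p = 5.06e-08) and TGFA (-0.20 ± 0.04, adjusted p = 5.71e-05). ERBB2 was higher (0.20 ± 0.04, adjusted p = 1.46e-06), a call lost with a gene-length correction. BTC (-0.06 ± 0.10) and NRG1 (-0.72 ± 0.36) did not pass. In all 8 of 10 members passed, beside 64.2% of genes, and 4 were DEGs, beside 20.1%. EREG was under the DEG threshold in some alternatives, where its lowest log2 fold-change was 0.98.

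In stimulated spheres EGF (1.91 ± 0.22, adjusted p = 7.48e-08), EREG (1.26 ± 0.08, adjusted p = 3.61e-12) and AREG (0.92 ± 0.06, adjusted p = 5.31e-12) were again higher in MII, and HBEGF (-1.42 ± 0.06, adjusted p = 3.05e-15) lower, by edgeR's quasi-likelihood test. EGFR was at 0.4997-fold (-1.001 ± 0.07, adjusted p = 7.15e-12), which puts it just past the DEG threshold, with alternatives from -1.17 to -0.97. ERBB2 (0.66 ± 0.05, adjusted p = 1.28e-10) and ERBB3 (0.42 ± 0.05, adjusted p = 1.98e-07) were higher in MII. ERBB3 and TGFA (0.21 ± 0.05, adjusted p = 0.00184) thus had the opposite direction to unstimulated spheres, and TGFA's call was lost with a gene-length correction. BTC (0.22 ± 0.11) and NRG1 (-0.65 ± 0.45) did not pass. The counts were 8 of 10 past the adjusted p, beside 62.7% of genes, and 4 DEGs, beside 19.8%. Each comparison of the lines shares libraries with both TGFβ comparisons.

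**Figure D5:**
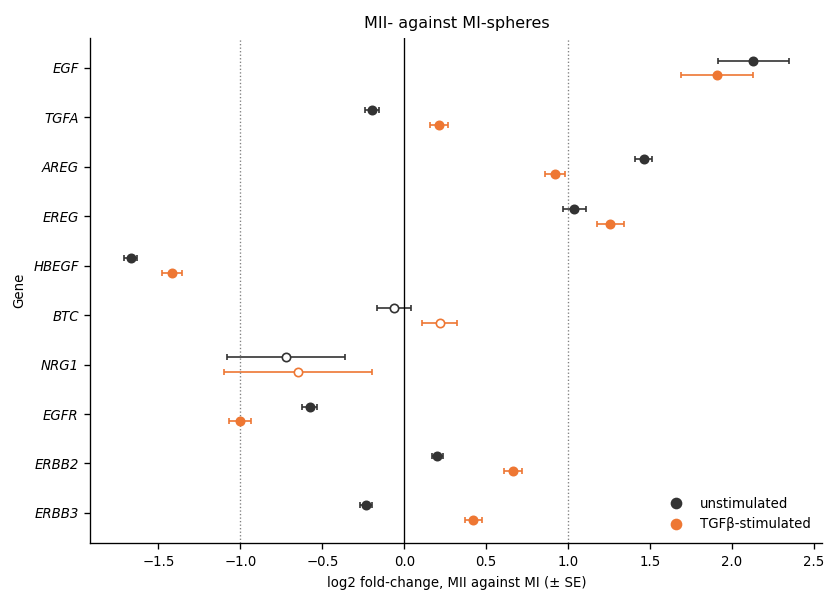
Points give the log2 fold-change of MII- against MI-spheres and bars its SE, from 3 against 3 unstimulated or 3 against 3 stimulated libraries, with filled points past an adjusted p of 0.05 and dotted lines at -1 and 1. EGF, AREG and EREG lie right of 0 and HBEGF and EGFR left of 0 in both, and TGFA and ERBB3 change side.

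The libraries labelled SLUG KO were compared with WT. Only BTC passed, at 6.71, 6.30 and 6.38 CPM against 2.70, 1.49 and 2.90 in WT, a log2 fold-change of 1.42 ± 0.29 (adjusted p = 0.0456 by edgeR's quasi-likelihood test). The groups did not overlap for BTC, but the call was lost in 8 of 13 alternatives. The 1 of 10 members stands beside 3.33% of genes past the adjusted p and 3.05% that were DEGs. ERBB3 (0.89 ± 0.20, adjusted p = 0.0627), HBEGF (0.67 ± 0.18, adjusted p = 0.109), EGF (0.68 ± 0.23, adjusted p = 0.18) and EREG (0.87 ± 0.47, adjusted p = 0.358) did not pass, nor did NRG1, TGFA, AREG, EGFR and ERBB2, at 0.20 ± 0.15, 0.16 ± 0.17, 0.04 ± 0.17, -0.24 ± 0.29 and -0.02 ± 0.33. Without WT replicate 2 the count was 6, but the share of all genes past the adjusted p rose as well, to 31.2%. BTC was then at 1.20 (adjusted p = 9.23e-05), ERBB3 at 1.013 (adjusted p = 7.13e-05), HBEGF at 0.60, EGF at 0.54, and EREG and ERBB2 each at 0.47, and BTC and ERBB3 were DEGs, beside 7.42% of genes.

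Depletion of SMAD2, SMAD3 and SMAD4 went with small differences in MDA-MB-231 cells, and no member was a DEG, beside 1.90% of genes. EREG had 38.1, 35.9 and 34.5 CPM in Csi and 26.3, 28.2 and 27.0 in siSMAD2/3/4, without overlap, a log2 fold-change of -0.42 ± 0.06 (adjusted p = 3.29e-06 by edgeR's quasi-likelihood test). HBEGF (0.33 ± 0.05, adjusted p = 6e-06), NRG1 (0.32 ± 0.05, adjusted p = 2.55e-06) and TGFA (0.19 ± 0.05, adjusted p = 0.00179) were higher. These 4 members also passed with flow cell as a term. Flow cell was read from the names of the deposited counts. For siSMAD2/3/4 replicates 1 and 2 these disagree with the batch in the sample labels, so the term is uncertain. EGFR (-0.12 ± 0.04, adjusted p = 0.0105) and ERBB3 (0.28 ± 0.10, adjusted p = 0.029) passed, but not with that term, and lost the call in 3 and 6 of 14 alternatives. EGF, AREG, BTC and ERBB2 did not pass, at -0.30 ± 0.14, 0.06 ± 0.05, 0.23 ± 0.14 and 0.10 ± 0.04. In all 6 of 10 passed, beside 36.0% of genes.

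Other genes of the pathway were read from lists of 39 genes, of which 35 to 37 were tested in a comparison. In MI-spheres TGFβ raised 13 of 37, beside 28.7% of all genes tested, and lowered 13, beside 27.4%. EPGN had 11.99 ± 0.326 CPM unstimulated and 56.6 ± 7.34 stimulated (SD, n = 3), a log2 fold-change of 2.16 ± 0.09 (adjusted p = 1.2e-14 by edgeR's quasi-likelihood test). In MII-spheres it went from 11.2 ± 0.389 to 22.8 ± 1.32 CPM (1.00 ± 0.09), and the responses differed by -1.15 ± 0.13 (adjusted p = 2.04e-09). EPGN was at most 0.751 CPM in MDA-MB-231 libraries, ERBB4, the receptor of the family outside the members, at most 0.47 CPM in any library, and NRG3 at most 0.134. NRG2 was low (1.36 to 4.36 CPM as group means) and higher in MII- than MI-spheres (1.11 ± 0.20 unstimulated), and NRG4 had 7.89 to 10.9 CPM in sphere groups and at most 0.267 in MDA-MB-231 groups.

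Of the shedding genes, ADAM10, which releases EGF and BTC, was lower in unstimulated MII- than MI-spheres (-0.96 ± 0.04, adjusted p = 4.6e-30 by edgeR's quasi-likelihood test), and ADAM17, which releases most other EGFR ligands, by less (-0.27 ± 0.05). The ADAM17 cofactor RHBDF2 (-0.66 ± 0.09) and FRMD8 (-0.52 ± 0.05), which binds the RHBDF proteins, were also lower, and RHBDF1, the other cofactor, did not pass (0.12 ± 0.06). With TGFβ the 5 shedding genes moved both ways. In MI-spheres ADAM17 rose (0.30 ± 0.06), RHBDF1 (-0.83 ± 0.07) and RHBDF2 (-0.44 ± 0.11) fell, and ADAM10 and FRMD8 did not pass. In MII-spheres ADAM10 rose (0.14 ± 0.04), RHBDF1 fell (-0.25 ± 0.06), and the other 3 did not pass. Of the 8 receptor inhibitors 4 were DEGs higher in unstimulated MII-spheres, namely ERRFI1 (1.61 ± 0.04), which blocks the EGFR kinase, LRIG3 (1.74 ± 0.05), CBLB (1.45 ± 0.06), a ubiquitin ligase of EGFR, and LRIG1 (1.44 ± 0.07), which promotes receptor breakdown. Of 13 ERK target and feedback genes 10 were higher and 2 lower in unstimulated MII-spheres, with PHLDA1 (2.89 ± 0.04) and ETV4 (2.45 ± 0.07) among the DEGs, as was the adaptor EPS8 (1.89 ± 0.04). The 2 lower were the ERK phosphatases DUSP5 (-0.60 ± 0.07) and DUSP6 (-0.16 ± 0.05). In stimulated spheres DUSP6 was a DEG lower in MII (-1.37 ± 0.06), and DUSP5 was higher (0.56 ± 0.12). Among all genes tested 12.5% were DEGs higher in unstimulated MII-spheres. Over all lists 18 of 37 genes were higher in that comparison, beside 31.7% of all genes, and 10 lower, beside 32.5%. In stimulated spheres 19 were higher, beside 31.1%, and 9 lower, beside 31.6%.

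TGFβ moved the ERK genes both ways. In MI-spheres DUSP6, an ERK phosphatase, had 1.48 ± 0.06 and DUSP5, another, -1.80 ± 0.09, and EGR1, an immediate early factor, had -1.81 ± 0.11, all DEGs by edgeR's quasi-likelihood test. LRIG1 and LRIG3 rose by 1.07 ± 0.08 and 1.01 ± 0.07. In MII-spheres EGR1 (-2.66 ± 0.06) was the only DEG of the lists, with 15 of 37 genes higher past the adjusted p, beside 29.9% of all genes, and 11 lower, beside 27.6%, and ERRFI1 rose in both lines (0.38 ± 0.06 in MI, 0.26 ± 0.04 in MII). In SLUG KO 1 of 36 genes passed, LRIG1 (1.44 ± 0.19, adjusted p = 0.0105), beside 3.33% of all genes. Without WT replicate 2, 9 of the 36 were higher, beside 16.8%, and 11 lower, beside 14.4%, with LRIG1 at 1.62 ± 0.09. In siSMAD2/3/4 10 of 35 were higher, beside 16.3%, and 13 lower, beside 19.7%, without a DEG, with ADAM10 at -0.22 ± 0.04, ADAM17 at -0.29 ± 0.05 and ERRFI1 at 0.33 ± 0.04.

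Likeness of pattern was taken as Pearson's r of log2 CPM over the 24 libraries, among 22143 genes, as a description, since the libraries fall into few cell types that set most of it. The closest genes were MYEF2 and FAM114A1 for EGF, UBE2R2 and PHLDA1 for AREG (r = 0.966 and 0.934), GOLPH3 for EREG, and NFKBIA and TMEM45B for HBEGF (0.959 and 0.915). They were SMIM19 and HDX for BTC, FAT4 and ZNF717 for NRG1, HIP1 and PC for EGFR, EPS8L1 and MAN2C1 for ERBB2, and GOLGA8A and KRT7 for ERBB3 (0.994 and 0.993). Among the members ERBB2 and ERBB3 were most alike (0.958), followed by NRG1 and EGFR (0.939), and NRG1 and ERBB3 ran most opposite (-0.975).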

How the data were processed

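RNA-seq of 24 libraries in 8 groups was used, and 16 ATAC-seq samples were not analysed. Reads had been trimmed (Trimmomatic) and aligned to GRCh38 (STAR), and the authors deposited raw counts per gene from featureCounts 2.0.0 on GENCODE 38 exons, with a mapping quality of at least 30 and strand ignored. Counts were not normalized. Totals (14124688 to 38406952) and 3 libraries per group limit the precision. The methods describe results in general as means of independent biological repeats. For these libraries no culture is named, and p-values measure the spread between them.

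Each comparison used its own groups, filterByExpr, TMM and edgeR 4.0.16 (R 4.3.3) quasi-likelihood tests, without a replicate block, with p-values adjusted after Benjamini and Hochberg over every gene tested. CPM were scaled over 24 libraries, and TPM used the deposited exon lengths. Alternatives were other filters, DESeq2 1.42.0 and its size factors, a gene-length correction (a smooth trend with 5 degrees of freedom), a replicate block, all 12 sphere libraries together, flow cell as a term, and leaving out each library. Scripts were tested on simulated data. Members and lists were chosen with earlier results of these data known. Named are all members, up to 6 list DEGs per comparison with the smallest adjusted p, 5 other family genes, ADAM10, ADAM17, ERRFI1, label checks and 2 closest genes per member, and some of these are not reported here. The shedding cofactors, DUSP5 and DUSP6 between the lines, the markers given by gene, and the lists and shares without WT replicate 2 were added after their values were seen.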

Additional observations from a re-analysis of the deposited data

Results flagged for a closer look

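The response to TGFβ differed between MI- and MII-spheres for 6 of the 10 members, tested as an interaction with edgeR's quasi-likelihood test, beside 22.4% of all genes tested. As MII minus MI log2 fold-changes, the values were 0.40 for TGFA, -0.55 for AREG, 0.25 for HBEGF, -0.43 for EGFR, 0.46 for ERBB2 and 0.65 for ERBB3. For AREG the responses had opposite signs (0.41 in MI- and -0.15 in MII-spheres), the MII value turning to 0.03 with a gene-length correction. HBEGF kept its direction in 19 of 19 alternatives and passed the threshold in 6. The other 5 passed in every alternative run. Groups of 3 libraries are too small for the test of single outlying samples.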

How the results depend on the processing

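Over 7 comparisons, 902 of the members' log2 fold-changes under an alternative kept their direction and their side of the adjusted p, 47 lost the call, 17 gained it and 37 changed sign, all but AREG in stimulated MII-spheres for values that had not passed. Filters, size factors, corrections and all sphere libraries in 1 fit moved no count of members by over 1.5 times outside SLUG KO against WT. There the count past the adjusted p (1) became 0 with at least 10 counts in every library, 0 with the replicate block, alone or with the gene-length correction, 2 with DESeq2's Wald test and 2 with the gene-length correction, and the DEG count became 0, 0, 0 and, with the length correction, 2. Leaving out each library gave 0 to 6 members past the adjusted p and 0 to 2 DEGs, the highest without WT replicate 2, while 0.725% to 31.2% of all genes passed and 0.725% to 7.42% were DEGs, again highest without it. In stimulated against unstimulated MII-spheres it gave 3 to 6, the lowest without stimulated replicate 2, with 51.4% to 53.9% of all genes. The causes were not tested.

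Signs changed as follows. In MI-spheres with TGFβ, BTC had -0.030 with at least 10 counts, and EREG 0.0072 with DESeq2 and 0.0014 with the length correction. In MII-spheres, EGF had 0.024 without a filter, 0.019 with DESeq2, 0.0037 with the length correction and 0.017 with all sphere libraries, TGFA -0.037 with at least 10 counts, and AREG 0.035 with the length correction and 0.034 when the replicate block was added. In SLUG KO, ERBB2 had 0.069 without a filter, 0.037 with DESeq2, 0.10 with the length correction, 0.085 with the replicate block and 0.20 with both. Leaving out single libraries gave -0.066 to 0.057 for EREG and -0.062 to 0.098 for BTC in MI-spheres, -0.078 to 0.042 for EGF and -0.0049 to 0.026 for TGFA in MII-spheres, -0.17 to 0.054 for BTC between unstimulated lines, and -0.82 to 0.39 for NRG1 in the interaction. In SLUG KO it gave -0.00018 to 0.16 for AREG, -0.44 to 0.15 for EGFR and -0.20 to 0.47 for ERBB2. No pairing of same-numbered replicates is named, and correlations of their deviations were -0.258 to 0.0794. The replicate block lowered the genes past the adjusted p in SLUG KO from 581 to 255. It raised them from 9446 to 9833 in MI-spheres with TGFβ and from 4156 to 4273 in the interaction, and lowered them in the other comparisons. Low counts made EGF and NRG1 the least precise members in spheres.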
